A study of Arabis alpina with 12 samples.

Results

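Transcript levels in V3 buds of Aatoe2_IL were compared with those of wild type in Arabis alpina, a perennial relative of Arabidopsis. The comparison rests on 6 of the 12 libraries of the study, 3 from wild-type buds and 3 from Aatoe2_IL buds, which were taken as the labels assign them. Plants of both genotypes were of the accession Pajares, grew in long days for 8 weeks and were then vernalized (held in the cold) in short days for another 8 weeks, and the buds were dissected at that point. The other 6 libraries came from main shoot apices of the same genotypes at the same stage, and they serve here to show where the buds differ from the apex. By its name and the study's design, Aatoe2_IL is a line changed in AaTOE2, which encodes a transcription factor like APETALA2. It was the sole line of its kind sampled, what was changed in it is not given in the sources used here, and the identifier of AaTOE2 itself carried no name, so that its level was not analysed here. V3 is the submitters' name for a class of axillary buds, and the comparison asks how such buds of Aatoe2_IL differ from those of wild type. Whether a difference comes from AaTOE2 or from something else that sets this line apart from wild type was not tested. With no other line changed in AaTOE2 sampled, the effect of the gene and that of the line cannot be told apart. Nothing in the labels ties the replicates to separate plants. The p-values therefore measure the spread between these samples, which may be technical.

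APETALA2-like factors such as TOE2 repress flowering in Arabidopsis. They are the targets of the microRNA miR172, which accumulates as plants age, and they act against the SPL factors, which are the targets of miR156 and promote the change from juvenile to adult growth and then flowering. In a perennial, an axillary bud can flower, grow into a leafy branch or stay dormant. Hormones, sugar supply and light set which of these happens, and class II TCP factors, gibberellin, cytokinin and abscisic acid all have known parts in it.

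Gene names are Arabidopsis names, taken from the orthologues in the authors' deposited tables. The authors listed those genes because they changed by more than 2-fold between the genotypes in these buds, in the apices or in both. No count over named genes is therefore independent evidence of a direction. Genes listed for apices alone are ones the authors did not list for buds, so that their not passing here was favoured in advance. The authors list for buds 8 of 16 tested glucosinolate genes, 8 of 14 heat shock genes and 8 of 10 clock genes. Levels are CPM, that is counts scaled to library size over the genes tested, and differences are Aatoe2_IL minus wild type on the log2 scale. In every case the 3 values after a genotype are those of replicates 1, 2 and 3. A gene passed where its p from edgeR's quasi-likelihood test, adjusted by Benjamini and Hochberg's method across the 19520 tested, was under 0.05, and "rose" and "fell" are used of such genes.

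Between 9411616 and 10580458 reads per bud library were assigned to genes, so that 1 CPM is about 10 reads. The first principal component of the bud libraries held 43.1% of the variance and separated the genotypes, with wild type between -35.9 and -25.9 and Aatoe2_IL between 17.7 and 40.6. The next held 24.4% and set wild-type replicate 1 apart, at 39.9 against -11.8 and -35.7 for the other wild-type libraries. That library also had the most reads outside genes, 21.5% against 13.8% to 19.0% in the other bud libraries. None of the 5 axillary bud markers looked for (BRC1, STM, LAS, CUC2 and RAX1) had a name, so that the labelled tissue was not checked against them. Of markers of other tissues, 1 of 31 green leaf genes, 3 of 5 phloem and vascular genes and 1 of 17 pollen, ovule and seed genes had a name, and none of 15 root and 13 trichome and epidermis genes did.

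In Aatoe2_IL buds 4 of 5 named promoters of flowering rose. So did 5 of 8 named genes in the list of sugar and vascular transport, among them the nitrate exchanger gene CLC-A. Both named members of the gibberellin list fell, while CYP714A2, which acts on gibberellins and is not in that list, rose. Falls were also found for 2 of 3 named cytokinin genes, 5 of 16 named glucosinolate genes and the floral patterning genes UFO and KNATM. UFO and KNATM kept their calls without each bud library. The calls of SPL4, SWEET13, GA2OX4, CKX1, UGT85A1, CYP79C2, IMD1 and IQD1 were each lost without at least 1 bud library. Among genes grouped after their values were seen, TCP4, TCP10, TCP24 and the chlorophyll genes CAB1 and PORA rose. In whole buds fewer cells of a type and less RNA per cell cannot be told apart. In all 967 genes passed, which is 4.95% of those tested. Of these 582 rose (2.98%) and 385 fell (1.97%). The median change was 0.82 among the genes that rose and -0.82 among those that fell, against -0.0095 over all genes tested. Among the rises 174 were below 1.5-fold, 168 between 1.5-fold and 2-fold, 176 between 2-fold and 4-fold and 64 above that, and the falls divided into 100, 131, 122 and 32. The genes that rose held 2.64% to 2.71% of the reads of a wild-type library, and 4.12%, 4.59% and 5.03% of those of Aatoe2_IL replicates 1, 2 and 3. Those that fell held 1.62% to 1.67% in wild type and 1.11%, 1.07% and 1.02% in the replicates of Aatoe2_IL. A name was available for 153 of the rises and 79 of the falls. The number of genes changed in V3 buds depended on the libraries used. It was 437 when wild-type replicate 2 was left out, 526 when Aatoe2_IL replicate 2 was, and 410 when Aatoe2_IL replicate 3 was, and a fit of the bud libraries alone gave 621.

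**Figure D1:**
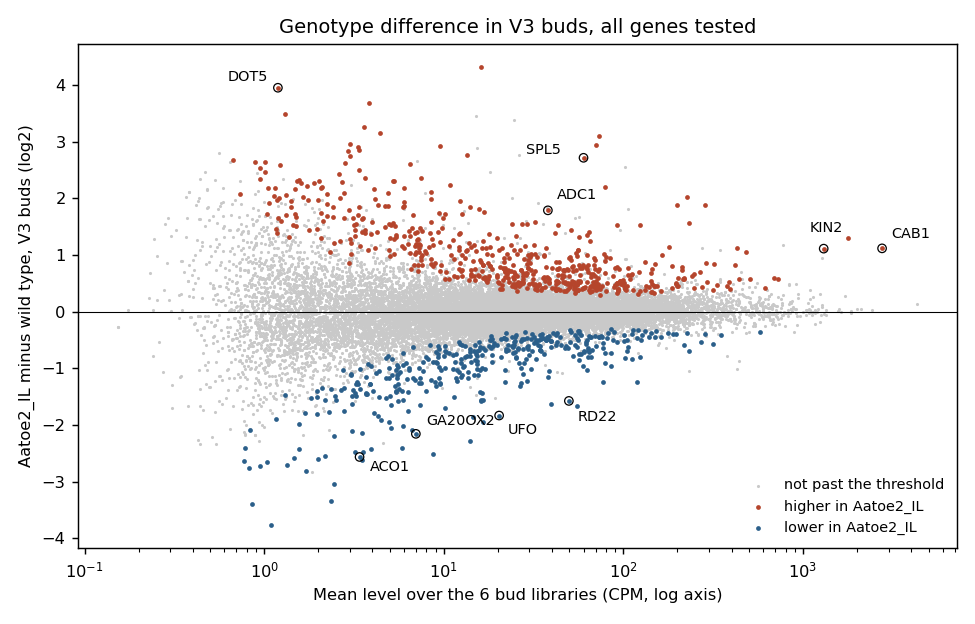
Difference between Aatoe2_IL and wild-type V3 buds (log2) against the mean level over the 6 bud libraries (CPM, log axis) for 19474 genes, each a point. Red points are genes that rose, blue points genes that fell and grey points genes not past the threshold, and circles mark 9 named genes. A further 46 genes with 3 or fewer counts in either group are left out. The median of all genes lies at -0.0095, and the genes that passed lie on both sides of it.

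Of 614 symbols in 23 lists of pathway and marker genes, 101 had a name and 99 of these were tested. Among the 99, 29 rose, 15 fell and 55 did not pass. The plot of the gene groups shows each member. A further 12 groups were drawn up after the names and values had been seen, and they are given as descriptions.

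**Figure D2:**
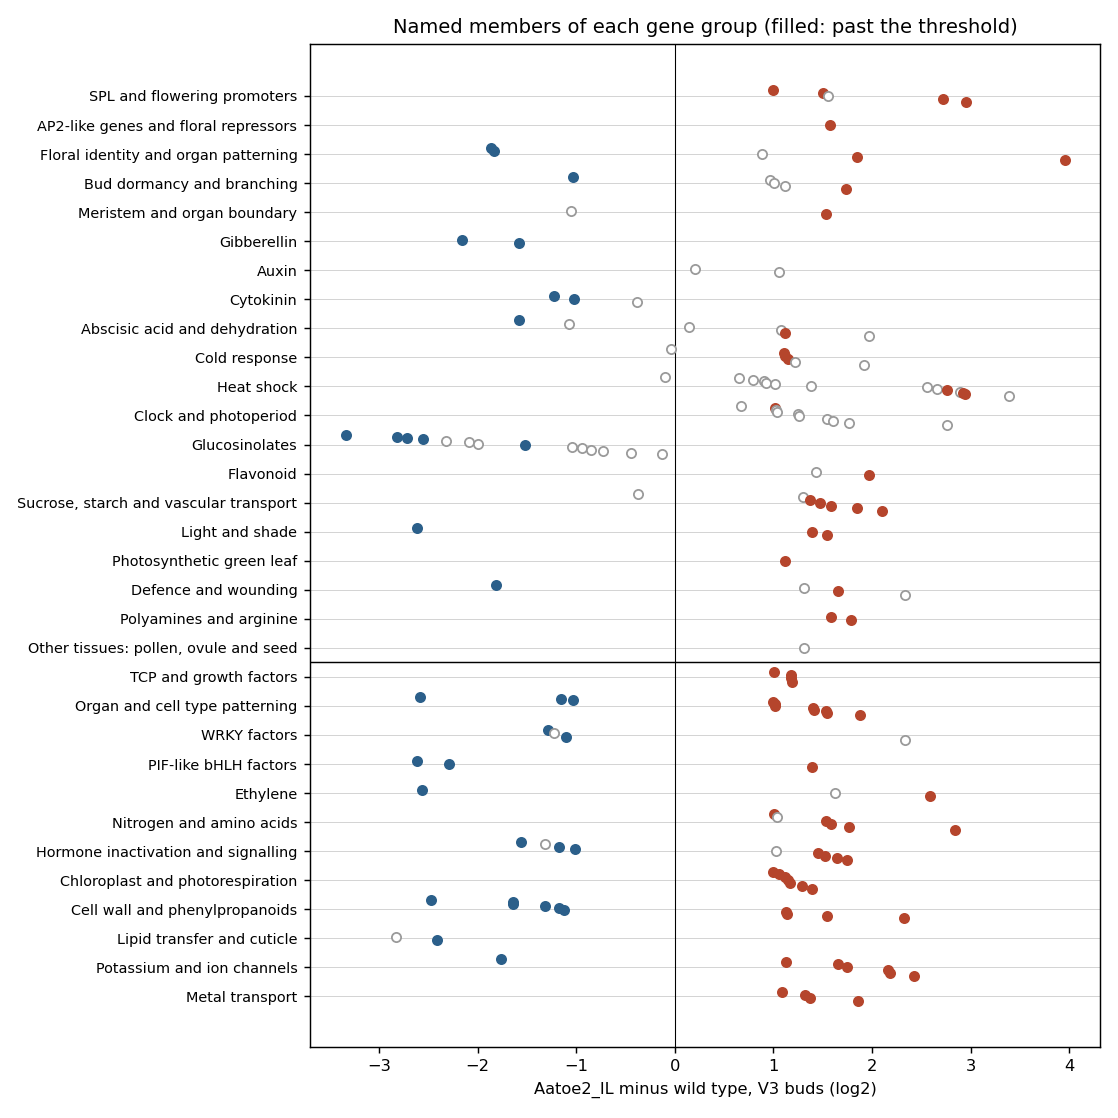
Difference between Aatoe2_IL and wild-type V3 buds (log2, horizontal axis) for the named members of 20 lists (above the line) and of 12 groups drawn up after the values were seen (below it). Each point is a gene, filled red where it rose, filled blue where it fell and open where it did not pass. 5 members with 3 or fewer counts in either group are left out. SPL, TCP, chloroplast, channel and metal transport genes lie to the right of 0 with the exception of the channel gene MSL9, and gibberellin and glucosinolate genes to the left.

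All 4 named SPL genes, which promote the adult phase and flowering, rose. SPL5 (Aa_G1050h1) stood at 19, 16.6 and 12 CPM in wild type and at 77.3, 142 and 93.3 CPM in Aatoe2_IL. The lowest Aatoe2_IL library was thus well above the highest wild-type library, and the gene rose by 2.71 log2 units (SE 0.26 and edgeR adjusted p = 6.34e-05). SPL3 (Aa_G438780h1) was close to undetected in wild type, at 1.11, 0.625 and 0.3 CPM, and reached 6.24, 3.13 and 6.67 CPM in Aatoe2_IL, a rise of 2.95 (SE 0.41). SPL10 (Aa_G61880h1), a relative from another SPL clade, was at 24.6, 17.9 and 18.7 CPM against 38.6, 45.4 and 37.9 CPM and rose by 0.99 (SE 0.16). SPL4 (Aa_G381970h1), the closest relative of SPL3 and SPL5, was at 4.84, 1.98 and 1.6 CPM against 6.24, 9.95 and 7.65 CPM. It rose by 1.5 log2 units (SE 0.32 and edgeR adjusted p = 0.0142), but lost its call without wild-type replicate 2 or 3 or, in turn, Aatoe2_IL replicate 2 (highest adjusted p = 0.0785), and the rise was 2.15 without wild-type replicate 1. Groups did not overlap for any of these 4 genes, against 22.1% of all genes tested. VIN3 (Aa_G307430h1), which is induced by cold and starts the silencing of the repressor FLC in Arabidopsis, stood at 5.65, 7.49 and 7.71 CPM in wild type and at 7.1, 18.9 and 35.4 CPM in Aatoe2_IL. Replicate 1 of Aatoe2_IL lay within the wild-type range and the other replicates above it, and the gene did not pass (log2 1.56, edgeR adjusted p = 0.0618). Of 25 listed promoters of flowering 5 had a name, 4 rose and the median of the 5 was 1.56.

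TOE3 (Aa_G165870h1), an APETALA2-like gene of the same family as TOE2, was the named member of the list of floral repressors. It had 2.72, 1.87 and 1.4 CPM in wild type and 6.34, 6.82 and 4.7 CPM in Aatoe2_IL, without overlap, and rose by 1.57 log2 units (SE 0.32 and edgeR adjusted p = 0.0114). Its call was lost without wild-type replicate 2 (highest adjusted p = 0.0551). TOE3 represses flowering in Arabidopsis.

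**Figure D3:**
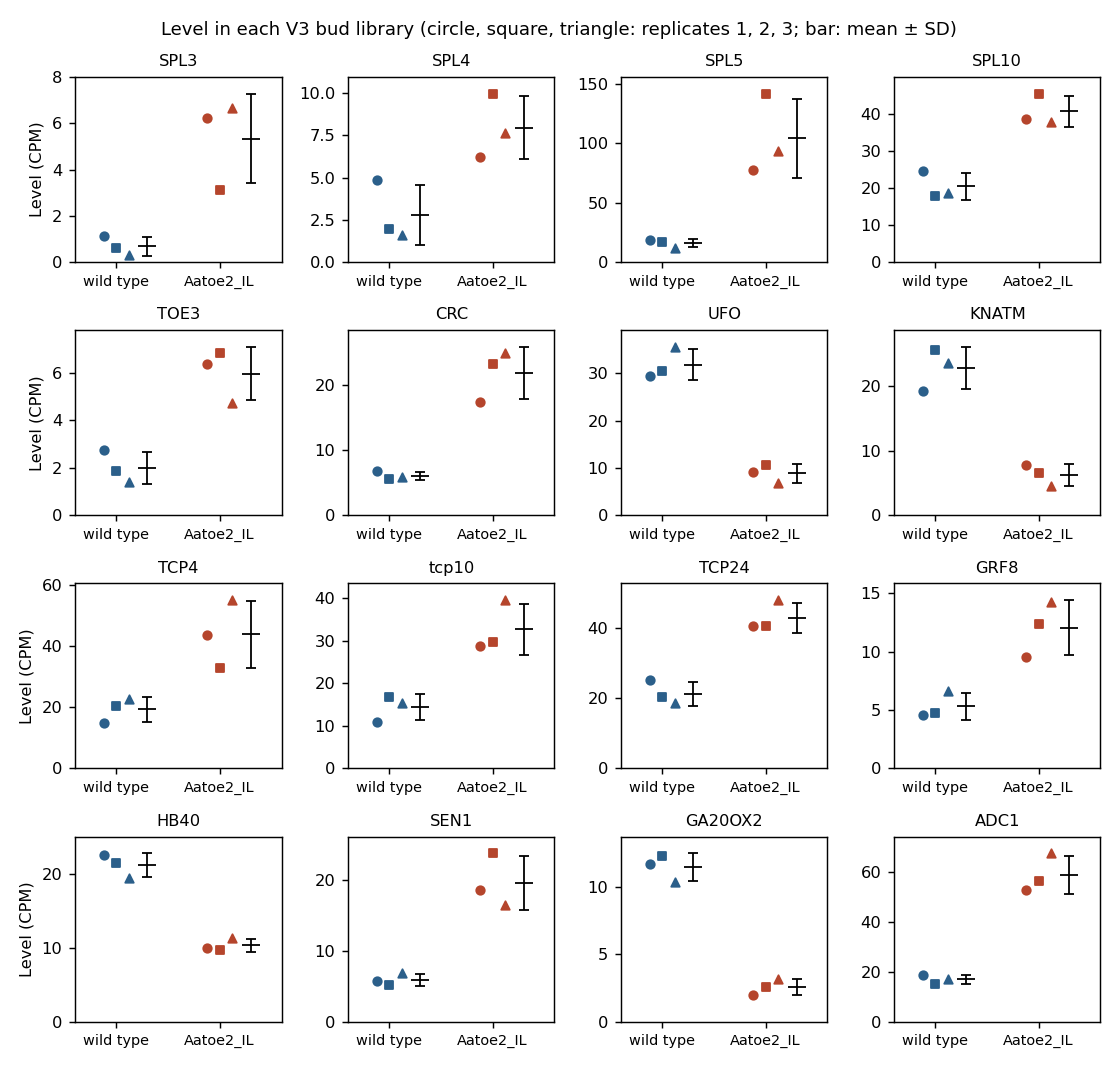
Level (CPM, vertical axes starting at 0) of 16 genes in each V3 bud library, with wild type in blue and Aatoe2_IL in red. Circles, squares and triangles are replicates 1, 2 and 3, and the bar beside them is the mean ± SD (n = 3). The groups do not overlap for these 16 genes, which were chosen after their values were seen, and UFO, KNATM, HB40 and GA20OX2 are lower in Aatoe2_IL while the others are higher.

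Genes of floral identity and organ patterning moved in both directions. AGL6 (Aa_G15980h1), a MADS-box gene of flower development, had 3 counts in wild-type buds, all in replicate 1, and 22, 78 and 78 counts in Aatoe2_IL replicates 1, 2 and 3. The ratio was 60.4 (exact 95% interval 20.3 to 296, counting error alone, edgeR adjusted p = 0.00297). Without wild-type replicate 1, wild type has no count of this gene. CRC (Aa_G690520h1), a YABBY gene of carpels and nectaries, was at 6.76, 5.52 and 5.9 CPM in wild type and at 17.42, 23.2 and 25 CPM in Aatoe2_IL, and rose by 1.85 (SE 0.21). DOT5 (Aa_G164270h1), a zinc finger gene named for a vein pattern mutant, had 0.202, 0 and 0.2 CPM against 2.37, 2.75 and 1.64 CPM and rose by 3.95 (SE 0.58), from few reads. UFO (Aa_G355720h1), the F-box partner of LEAFY in floral patterning, fell. It stood at 29.3, 30.5 and 35.5 CPM in wild type and at 9.14, 10.7 and 6.78 CPM in Aatoe2_IL, a fall of 1.83 log2 units (SE 0.19 and edgeR adjusted p = 0.000132). KNATM (Aa_G777300h1), a KNOX-related gene without a homeodomain that acts at organ margins, went from 19.3, 25.6 and 23.62 CPM to 7.74, 6.54 and 4.48 CPM and fell by 1.86 (SE 0.21). The meristem identity gene AP1 had at most 3 counts in each group, so that no fold is given, and SHP2, a carpel gene, had a log2 difference of 0.89 (edgeR adjusted p = 0.518). CRC, UFO, KNATM, DOT5 and AGL6 kept their calls whichever bud library was left out.

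Class II TCP factors restrain cell division in growing organs, and TCP4, TCP10 and TCP24 are targets of miR319 in Arabidopsis. All 3 orthologues rose, each about 2-fold. TCP4 (Aa_G1290h1) went from 14.9, 20.4 and 22.8 CPM in wild type to 43.7, 33.1 and 55.1 CPM in Aatoe2_IL, a rise of 1.18 log2 units (SE 0.2 and edgeR adjusted p = 0.00406). The values of TCP10, which the tables write as tcp10 (Aa_G561790h1), were 10.9, 16.8 and 15.5 CPM against 28.8, 29.7 and 39.6 CPM, and it rose by 1.18 (SE 0.18). TCP24 (Aa_G538600h1) was at 25.1, 20.2 and 18.5 CPM against 40.4, 40.4 and 47.8 CPM and rose by 1.01 (SE 0.15). GRF8 (Aa_G331990h1), a growth-regulating factor of the family targeted by miR396, stood at 4.54, 4.79 and 6.61 CPM and at 9.57, 12.4 and 14.2 CPM and rose by 1.18 (SE 0.22). Each of the 4, which were grouped after their values were seen, kept its call without each bud library in turn. TCP4 and tcp10 are related in sequence and could share reads.

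Of 11 further genes of organ and cell type patterning, grouped after their values were seen and all past the threshold, 8 rose and 3 fell. AS2 (Aa_G32410h1), a LOB-domain gene of leaf polarity, rose by 1.0 (SE 0.2) from 4.74, 4.89 and 5.4 to 10.3, 9.09 and 10.7 CPM. BLH2 (Aa_G363150h1) and BLH4 (Aa_G11920h1), BEL1-like homeodomain genes that shape leaf margins, rose by 1.41 (SE 0.21) and 1.01 (SE 0.19). BLH2 had 4.44, 3.75 and 4.1 CPM in wild type and 8.82, 9.09 and 15 CPM in Aatoe2_IL. BRL2 (Aa_G280910h1), a receptor kinase gene of leaf veins, rose by 1.88 (SE 0.31) from 2.12, 2.19 and 1.2 to 8.6, 4.64 and 7.11 CPM. These 4 kept their calls without each bud library. The stomatal receptor gene TMM rose by 1.01 and lost its call without wild-type replicate 2 (highest adjusted p = 0.0573). The GRAS-family meristem gene HAM4 (1.4) lost it without Aatoe2_IL replicate 3 (highest adjusted p = 0.0507). ZPR2, a little zipper gene that opposes class III homeodomain factors, rose by 1.54 and lost it without wild-type replicate 2 or, in turn, Aatoe2_IL replicate 2 (highest adjusted p = 0.0747). GIS, a zinc finger gene of trichome formation, rose by 1.53 and lost it without wild-type replicate 1 or, in turn, Aatoe2_IL replicate 2 or 3 (highest adjusted p = 0.102). Among the falls were WIP5, a zinc finger gene (2.82, 2.19 and 2.6 to 0.538, 0.474 and 0.219 CPM, log2 -2.59), which lost its call without Aatoe2_IL replicate 2 or 3 (highest adjusted p = 0.0744), and the B3-domain gene REM35 and the small peptide gene RTFL16, at -1.15 and -1.03. REM35 lost its call without wild-type replicate 1, 2 or 3 or, in turn, Aatoe2_IL replicate 2 or 3 (highest adjusted p = 0.112), and RTFL16 without wild-type replicate 1 or 2 or, in turn, Aatoe2_IL replicate 1 or 3 (highest adjusted p = 0.141). XIP1 (Aa_G17360h1), a receptor-like kinase gene that orders xylem and phloem, was the named gene of the meristem and boundary list that passed. It rose by 1.53 log2 units (SE 0.22 and edgeR adjusted p = 0.00116), from 2.52, 3.44 and 1.9 CPM to 8.28, 6.63 and 7.87 CPM. No member of the cell division list had a name.

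In the list of bud dormancy and branching 5 of 24 genes had a name, of which 1 rose, 1 fell and 3 did not pass. HB40 (Aa_G223150h1), a homeobox gene that acts below BRC1 in Arabidopsis to raise abscisic acid in dormant buds, had 22.7, 21.6 and 19.5 CPM in wild type and 10, 9.76 and 11.4 CPM in Aatoe2_IL and fell by 1.03 log2 units (SE 0.17 and edgeR adjusted p = 0.00354). SEN1 (Aa_G376370h1), a dark-induced gene often used as a marker of dormant buds, went the other way, from 5.75, 5.1 and 6.8 CPM to 18.5, 23.7 and 16.4 CPM, a rise of 1.73 (SE 0.27). DRM2 (Aa_G438760h1), of the dormancy-associated family, had 208, 163 and 148 CPM against 302, 248 and 573 CPM (log2 1.11, edgeR adjusted p = 0.0748). HB53, a close relative of HB40, stood at 21.6, 19.1 and 17.8 CPM against 34.5, 34.7 and 45 CPM (log2 0.97, edgeR adjusted p = 0.0724). NCED3, a gene of abscisic acid synthesis, was at 1.0 (edgeR adjusted p = 0.193).

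Both named members of the gibberellin list fell, while CYP714A2, another named gene that acts on gibberellins, rose. GA20OX2 (Aa_G598100h1), an enzyme of the last steps of gibberellin synthesis, had 11.7, 12.3 and 10.3 CPM in wild type and 1.94, 2.56 and 3.2 CPM in Aatoe2_IL, a fall of 2.16 log2 units (SE 0.26 and edgeR adjusted p = 0.000354). GA2OX4 (Aa_G418770h1), which inactivates gibberellin, fell by 1.57 (SE 0.33), from 7.76, 10.1 and 7.11 CPM to 2.9, 3.13 and 2.29 CPM, and lost its call without wild-type replicate 2 or, in turn, Aatoe2_IL replicate 3 (highest adjusted p = 0.0702). Genes of synthesis and of breakdown thus fell together. CYP714A2 (Aa_G169000h1), a cytochrome P450 gene that acts on gibberellins or their precursors in Arabidopsis, rose by 1.74 (SE 0.28), from 4.54, 3.85 and 4.6 to 12.2, 13.9 and 17.5 CPM.

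Among 3 named cytokinin genes 2 fell. UGT85A1 (Aa_G549800h1), which attaches glucose to zeatin, was at 18.6, 13.4 and 17.8 CPM in wild type and at 8.6, 6.44 and 6.34 CPM in Aatoe2_IL and fell by 1.22 log2 units (SE 0.31 and edgeR adjusted p = 0.0369). CKX1 (Aa_G188410h1), which degrades cytokinin, went from 26.5, 20.9 and 20.6 CPM to 15.4, 8.53 and 9.73 CPM and fell by 1.02 (edgeR adjusted p = 0.0498), at the edge of the threshold. Both genes lost their calls without wild-type replicate 1, 2 or 3 or, in turn, Aatoe2_IL replicate 2 or 3 (highest adjusted p = 0.193) for CKX1 and without wild-type replicate 1, 2 or 3 or, in turn, Aatoe2_IL replicate 2 or 3 (highest adjusted p = 0.148) for UGT85A1. LOG7, which activates cytokinin, was at -0.38 (edgeR adjusted p = 0.507). KMD4 (Aa_G349370h1), an F-box gene whose product removes activators of the cytokinin response, rose by 1.45 (SE 0.2) from 27.9, 28.1 and 26 to 47.5, 76.7 and 99.5 CPM and kept its call without each bud library.

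Of genes that inactivate or respond to other hormones, BEN1 (Aa_G16270h1), which inactivates brassinosteroid, fell by 1.02 (SE 0.2) from 18.8, 18.7 and 24.4 to 9.57, 12.6 and 8.31 CPM and lost its call without Aatoe2_IL replicate 3 (highest adjusted p = 0.0505). TTL2, of a family that acts in brassinosteroid signalling, fell by 1.56 (SE 0.29) from 3.33, 3.54 and 4.4 to 1.29, 1.61 and 0.875 CPM. GH3.17, which conjugates auxin to glutamate, fell by 1.18, while its family member DFL2 rose by 1.52 with values of 30.1, 75.5 and 86.8 CPM in Aatoe2_IL against 19.97, 22.9 and 24 CPM. GH3.17 lost its call when any of the 6 bud libraries was left out (highest adjusted p = 0.099), and DFL2 without wild-type replicate 2 or, in turn, Aatoe2_IL replicate 3 (highest adjusted p = 0.0654). Neither named auxin list gene passed, with PIN3, an auxin efflux carrier, at 0.2 (edgeR adjusted p = 0.786) and BRU6, another auxin-conjugating enzyme, at 1.06 (edgeR adjusted p = 0.0824). ACO1 (Aa_G230160h1), the last enzyme of ethylene synthesis, fell from 5.34, 7.08 and 5.004 CPM to 2.04, 0.474 and 0.437 CPM, by 2.56 (SE 0.44) with all bud libraries and by 3.63 without Aatoe2_IL replicate 1. The ethylene response factor gene ERF104 rose by 2.58, or by 1.92 without Aatoe2_IL replicate 3, and lost its call without wild-type replicate 1, 2 or 3 or, in turn, Aatoe2_IL replicate 2 or 3 (highest adjusted p = 0.25). It also lost it with the replicate number as a block (adjusted p = 0.0605). SMXL3, of a family that promotes phloem formation, rose by 1.64, or by 2.36 without wild-type replicate 1, and lost its call without wild-type replicate 2 or, in turn, Aatoe2_IL replicate 2 (highest adjusted p = 0.0733).

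Named genes in the list of sugar and vascular transport rose in 5 of 8 cases, with a median of 1.42. The nitrate exchanger gene CLC-A is in that list and among those that rose. SEOR1 (Aa_G451650h1) and SEOA (Aa_G451660h1) encode the filaments of phloem sieve elements. SEOR1 stood at 7.56, 3.23 and 4.7 CPM in wild type and at 16.2, 11.1 and 16 CPM in Aatoe2_IL, and rose by 1.47 log2 units (SE 0.26 and edgeR adjusted p = 0.00428). SEOA was at 9.48, 6.97 and 3.9 CPM against 20.9, 13 and 18.9 CPM and rose by 1.37 (SE 0.27). The identifiers of these related genes are next to each other in number, and they could share reads. SUS6 (Aa_G303450h1), a sucrose synthase gene of the phloem, went from 0.907, 1.25 and 1.001 CPM to 4.84, 4.07 and 4.7 CPM, a rise of 2.1 log2 units (SE 0.25 and edgeR adjusted p = 0.000354). CLC-A (Aa_G229820h1), the vacuolar nitrate exchanger, rose by 1.58 log2 units (SE 0.15 and edgeR adjusted p = 6.34e-05), from 18.1, 16.3 and 13.9 to 52, 41.9 and 51 CPM. The sucrose exporter gene SWEET13 rose by 1.84 (edgeR adjusted p = 0.0414), or by 3.01 without wild-type replicate 1, and lost its call without wild-type replicate 2 or 3 or, in turn, Aatoe2_IL replicate 1, 2 or 3 (highest adjusted p = 0.157). CT-BMY, a starch-degrading amylase, reached 15.6, 19.5 and 78.5 CPM in Aatoe2_IL against 19.5, 16.6 and 9.71 CPM, with replicate 3 far above the others, and did not pass (edgeR adjusted p = 0.173). The summed level of the 3 named phloem and vascular markers was 10.5 to 19.6 CPM in wild-type buds and 30.7 to 45.4 CPM in Aatoe2_IL buds, against 93.0 to 99.6 CPM in wild-type apices and 48.9 to 73.2 CPM in Aatoe2_IL apices. The sum was thus higher in Aatoe2_IL than in wild type in buds and lower in apices. Whether the share of vascular tissue moved with these genes was not tested.

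Of 7 potassium and other ion channel genes, grouped after their values were seen and all past the threshold, 6 rose. KT2/3 (Aa_G380870h1), a potassium channel gene of the phloem, rose by 2.16 (SE 0.29) from 2.12, 0.833 and 1.5 to 5.7, 6.16 and 8.31 CPM. CNGC4 (Aa_G516250h1) and CNGC3 (Aa_G196870h1) encode cyclic nucleotide-gated cation channels. CNGC4 rose by 1.65 (SE 0.21) from 5.85, 3.33 and 5.1 to 14.9, 12.1 and 18.1 CPM and CNGC3 by 2.43 (SE 0.36) from 0.807, 0.729 and 0.901 to 4.09, 3.22 and 6.01 CPM. SKOR, which loads potassium into the xylem, rose by 1.12 and lost its call without wild-type replicate 2 or, in turn, Aatoe2_IL replicate 2 (highest adjusted p = 0.0684). The malate channel gene ALMT6 rose by 1.75, losing its call without wild-type replicate 1 (highest adjusted p = 0.0503), and OZS1, the stomatal anion channel SLAC1, rose by 2.18, losing it without wild-type replicate 2 or 3 or, in turn, Aatoe2_IL replicate 2 or 3 (highest adjusted p = 0.0736). The mechanosensitive channel gene MSL9 fell, from 7.26, 10.3 and 11.9 CPM to 3.66, 3.03 and 1.97 CPM, by 1.76 (SE 0.35), and lost its call without Aatoe2_IL replicate 3 (highest adjusted p = 0.0574).

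The 4 genes of metal transport described here rose, but they were grouped after their values were seen. ZIP1 (Aa_G40090h1), a zinc transporter gene, rose by 1.85 (SE 0.33) from 2.12, 1.04 and 1.2 to 6.88, 5.68 and 3.28 CPM and kept its call throughout. The vacuolar facilitator genes ZIF1 and ZIFL1, which could share reads, rose by 1.08 and 1.37, and MTP8, a manganese transporter gene, by 1.32. These 3 lost their calls without wild-type replicate 2 or Aatoe2_IL replicate 3, with highest adjusted p of 0.0726 for ZIF1, 0.0505 for ZIFL1 and 0.0654 for MTP8.

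Both named genes of polyamine synthesis rose. ADC1 (Aa_G543430h1), arginine decarboxylase, had 18.6, 15.2 and 17.3 CPM in wild type and 52.7, 56.5 and 67.5 CPM in Aatoe2_IL and rose by 1.79 log2 units (SE 0.14 and edgeR adjusted p = 1.06e-05). ACL5 (Aa_G112840h1), the thermospermine synthase that holds back xylem differentiation, went from 3.83, 5.41 and 3.5 CPM to 12.7, 9.76 and 16 CPM and rose by 1.59 (SE 0.24). Both kept their calls without each bud library. Of 6 genes of nitrogen and amino acid use, CLC-A among them, 5 rose, but they were grouped after their values were seen. NIA1 (Aa_G121580h1), nitrate reductase, rose by 1.53 (SE 0.29) from 65.7, 59.8 and 65.2 to 88.9, 197 and 265 CPM, with Aatoe2_IL replicate 1 closest to wild type. BCAT-1, of branched-chain amino acid breakdown, rose by 1.76 (SE 0.34) from 9.68, 8.12 and 5.1 to 14.2, 25.8 and 37.9 CPM. The amino acid exporter genes UMAMIT33 and UMAMIT44 rose by 2.83 (SE 0.47) and 1.0 (SE 0.17). The asparaginase gene ASPGB1 had 21.9, 64.7 and 49.95 CPM in Aatoe2_IL against 21.3, 21.6 and 23.9 CPM and did not pass (edgeR adjusted p = 0.0734).

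The genes of the chloroplast and photorespiration described here are 7 that were grouped after their values were seen, all of which rose, so that their number shows nothing about chloroplast genes as a whole. CT-BMY, the chloroplast amylase described above, did not pass. CAB1 (Aa_G248920h1), a light-harvesting chlorophyll-binding protein and the named member of the green leaf markers, was among the most abundant transcripts that changed. It stood at 1690.0, 1710.0 and 1821 CPM in wild type and at 3034, 3640.0 and 4641 CPM in Aatoe2_IL and rose by 1.12 log2 units (SE 0.18 and edgeR adjusted p = 0.00243). It belongs to a family of near-identical copies that could share reads. PORA (Aa_G184100h1), which makes chlorophyll in the light, rose by 1.05 (SE 0.16) from 241, 321 and 382 to 615, 619 and 723 CPM. CIA2 (Aa_G69040h1), a factor that raises the import of proteins into chloroplasts, rose by 1.16 (SE 0.11) from 15.7, 17.7 and 18.8 to 38.9, 35.7 and 42.5 CPM. FBA2, a chloroplast aldolase, rose by 0.99, GOX1, a photorespiratory oxidase, by 1.15, and the NDH complex genes NdhO and PnsB3 by 1.39 and 1.29. Each of these lost its call without some of the bud libraries, FBA2 without wild-type replicate 2 or, in turn, Aatoe2_IL replicate 3 (highest adjusted p = 0.0615), GOX1 without wild-type replicate 1, 2 or 3 or, in turn, Aatoe2_IL replicate 1 or 3 (highest adjusted p = 0.129), NdhO without wild-type replicate 2 or 3 or, in turn, Aatoe2_IL replicate 1, 2 or 3 (highest adjusted p = 0.147) and PnsB3 without wild-type replicate 2 or 3 or, in turn, Aatoe2_IL replicate 2 or 3 (highest adjusted p = 0.0971). The share of green tissue in the buds was not tested.

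Of 3 named members of the light and shade list PIL6 and XTH15, a cell wall enzyme described below, rose and PIL1 fell. PIL2, a relative of PIL1 and PIL6 outside the list, fell too, so that of these 3 PIF-like bHLH genes 1 rose and 2 fell. The 3 were grouped after their values were seen. PIL1 (Aa_G177970h1), a bHLH gene induced by shade, had 7.26, 5.72 and 5.004 CPM in wild type and 1.07, 0.663 and 1.2 CPM in Aatoe2_IL and fell by 2.61 (SE 0.5). PIL6 (Aa_G262260h1), also called PIF5, which promotes elongation, rose by 1.39 (SE 0.23) from 6.35, 8.02 and 6.004 to 15.9, 13.7 and 23.8 CPM. PIL2 fell by 2.29 but its wild-type values ran from 5.9 to 44.9 CPM and overlapped those of Aatoe2_IL, at 3.33, 2.37 and 8.63 CPM. The fall was 1.37 without wild-type replicate 1 and 3.02 without Aatoe2_IL replicate 3, and the call was lost without wild-type replicate 1 or 2 or, in turn, Aatoe2_IL replicate 1 or 2 (highest adjusted p = 0.19) and with the replicate number as a block (adjusted p = 0.0589). Of 4 WRKY factor genes, grouped after their values were seen, 2 fell. WRKY13 (Aa_G472620h1) and WRKY12 (Aa_G252340h1) act on flowering time in opposite directions in short days in Arabidopsis. WRKY13 fell by 1.11 (SE 0.16) from 29.8, 37.5 and 45.4 to 18.1, 15.7 and 18.6 CPM. WRKY12 fell by 1.28 (SE 0.32) from 8.07, 4.68 and 3.7 to 2.15, 2.08 and 2.51 CPM and lost its call without wild-type replicate 1 or 2 or, in turn, Aatoe2_IL replicate 1, 2 or 3 (highest adjusted p = 0.124).

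Genes of the cell wall and of phenylpropanoids moved in both directions. The 10 described here, 4 up and 6 down, were grouped after their values were seen and all of them passed. By the descriptions in the authors' tables, 5 named genes were cell wall remodelling enzymes, of which 1 rose, 2 fell and 2 did not pass. XTH15 (Aa_G191150h1), a xyloglucan-remodelling enzyme that shade induces, rose by 1.54 (SE 0.23) from 8.07, 12.2 and 16.7 to 34.7, 36 and 37 CPM, while its family member XTH7 (Aa_G95130h1) fell by 2.47 (SE 0.38) from 7.06, 6.45 and 4.6 to 1.07, 0.568 and 1.64 CPM. UGT84A2, of sinapate ester synthesis, and the glycan synthase gene ATCSLA15 rose by 1.13 (SE 0.2) and 1.13 (SE 0.21), and the pectin methylesterase gene PMEPCRF fell by 1.18 (SE 0.22). These 5 kept their calls without each bud library. AGP12, an arabinogalactan protein, rose by 2.33. The lignin pathway genes PAL4 and CAD5 fell by 1.31 and 1.12, CSLC04, which makes the xyloglucan backbone, by 1.64, and PLL18, a pectate lyase-like gene, by 1.64. AGP12 lost its call without wild-type replicate 1, 2 or 3 or, in turn, Aatoe2_IL replicate 2 or 3 (highest adjusted p = 0.196), PAL4 without wild-type replicate 2 or 3 or, in turn, Aatoe2_IL replicate 2 or 3 (highest adjusted p = 0.171), CAD5 without wild-type replicate 1 or 2 or, in turn, Aatoe2_IL replicate 1 or 2 (highest adjusted p = 0.127), CSLC04 without wild-type replicate 1 or 2 or, in turn, Aatoe2_IL replicate 1 or 2 (highest adjusted p = 0.106) and PLL18 without Aatoe2_IL replicate 2 (highest adjusted p = 0.0549). Of the lipid transfer genes LTP4 fell from 14.7, 7.91 and 6.8 to 1.72, 1.61 and 2.19 CPM, by 2.41 (SE 0.35), and LTP3 did not pass (log2 -2.83, edgeR adjusted p = 0.133).

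Cold-responsive genes rose in 3 of 6 named cases. KIN2 (Aa_G56460h1), a cold-induced protective protein, was the most abundant, at 836, 796 and 844 CPM in wild type and 1373, 2058 and 1917 CPM in Aatoe2_IL, and rose by 1.11 log2 units (SE 0.19 and edgeR adjusted p = 0.00363). LTI78 (Aa_G396870h1), also called RD29A, had 288, 269.5 and 257 CPM against 425, 404 and 939.9 CPM, with Aatoe2_IL replicate 3 far above the others. It rose by 1.12 (edgeR adjusted p = 0.0301) and lost its call without wild-type replicate 1, 2 or 3 or, in turn, Aatoe2_IL replicate 3 (highest adjusted p = 0.133). COR413-PM1 had 136, 103 and 96.1 CPM against 164, 201 and 379 CPM, rose by 1.15 and lost its call without wild-type replicate 2 or 3 or, in turn, Aatoe2_IL replicate 3 (highest adjusted p = 0.114). Relative to the wild-type mean, the median of the cold list was 0.61, 0.72 and 1.78 in Aatoe2_IL replicates 1, 2 and 3.

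Of 6 named genes of abscisic acid and dehydration, LTI78 rose and RD22 fell. RD22 (Aa_G539240h1), a dehydration-responsive gene, went from 62.6, 78.8 and 81.9 CPM to 29.8, 18.4 and 26.9 CPM and fell by 1.58 log2 units (SE 0.21 and edgeR adjusted p = 0.000916). The other members spread widely within Aatoe2_IL. RAB18, a dehydrin that abscisic acid induces, had 14.8, 5.59 and 62.3 CPM in Aatoe2_IL and 98.4, 47.4 and 26.3 CPM in wild type (edgeR adjusted p = 0.588), and the dehydrin ERD10 had 305, 286 and 815 CPM and 251, 211 and 204 CPM (edgeR adjusted p = 0.109). In both genes Aatoe2_IL replicate 3 was the highest library of its genotype. The median of the list relative to the wild-type mean was 0.4, -0.45 and 1.45 in the Aatoe2_IL replicates.

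Heat shock genes had a high median, 1.97, but 3 of 14 named members passed. HSP23.6-MITO (Aa_G831180h1), a mitochondrial small heat shock protein, rose by 2.92 (SE 0.56) from 1.71, 2.71 and 2.2 to 10.3, 18.5 and 21.5 CPM and kept its call without each bud library. HSP90.1 (Aa_G586300h1), a cytosolic chaperone, had 31.2, 12.9 and 4.6 CPM in wild type and 47.8, 159 and 167 CPM in Aatoe2_IL, rose by 2.94, or by 3.84 without wild-type replicate 1, and lost its call without wild-type replicate 2 or 3 or, in turn, Aatoe2_IL replicate 2 or 3 (highest adjusted p = 0.121). HSP101 (Aa_G639700h1), a chaperone that dissolves protein aggregates, rose by 2.76, or by 3.35 without wild-type replicate 1, and lost its call without wild-type replicate 2 or 3 or, in turn, Aatoe2_IL replicate 2 or 3 (highest adjusted p = 0.0926). Another copy of HSP101 is counted on its own, and both could share reads. The heat shock factor gene HSFA7A, which did not pass, shows the spread, with 9.07, 3.23 and 0.5 CPM in wild type and 3.76, 59.7 and 70.6 CPM in Aatoe2_IL. Replicate 1 of Aatoe2_IL was within the wild-type range while the other replicates were far above it. Over the list, 5 of 14 genes in Aatoe2_IL replicate 1 lay above every wild-type library, against 13 of 14 in replicate 2 and 13 of 14 in replicate 3, and the medians were 0.15, 2.03 and 2.52. The share of all genes tested that lay so in each library is not given here. As members have names because the authors list them as changed, these counts describe the split between libraries alone.

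Clock genes showed the same split by library. CCA1 (Aa_G177850h1), a morning clock factor, had 9.98, 4.79 and 5.6 CPM in wild type and 11.2, 83.7 and 43 CPM in Aatoe2_IL (log2 2.76, edgeR adjusted p = 0.0629). EPR1 (Aa_G55260h1), a relative of CCA1, was the member that passed, at 56.9, 46.9 and 50.8 CPM against 76.2, 137 and 100.2 CPM. It rose by 1.02 and lost its call without wild-type replicate 2 or 3 or, in turn, Aatoe2_IL replicate 2 or 3 (highest adjusted p = 0.0993). Of the 10 named members 3 in Aatoe2_IL replicate 1 lay above every wild-type library, and 10 in replicate 2 and 10 in replicate 3, with medians of 0.14, 1.995 and 1.2. As for the heat shock list, no share over all genes is set beside these counts, which describe the split between libraries alone. The hour at which each bud was collected is not given in the labels, and its part in the clock and heat values was not tested. The median of the SPL and flowering promoter list, which also holds VIN3, was 1.26, 1.91 and 2.33 in the same replicates, above 1 in each.

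**Figure D4:**
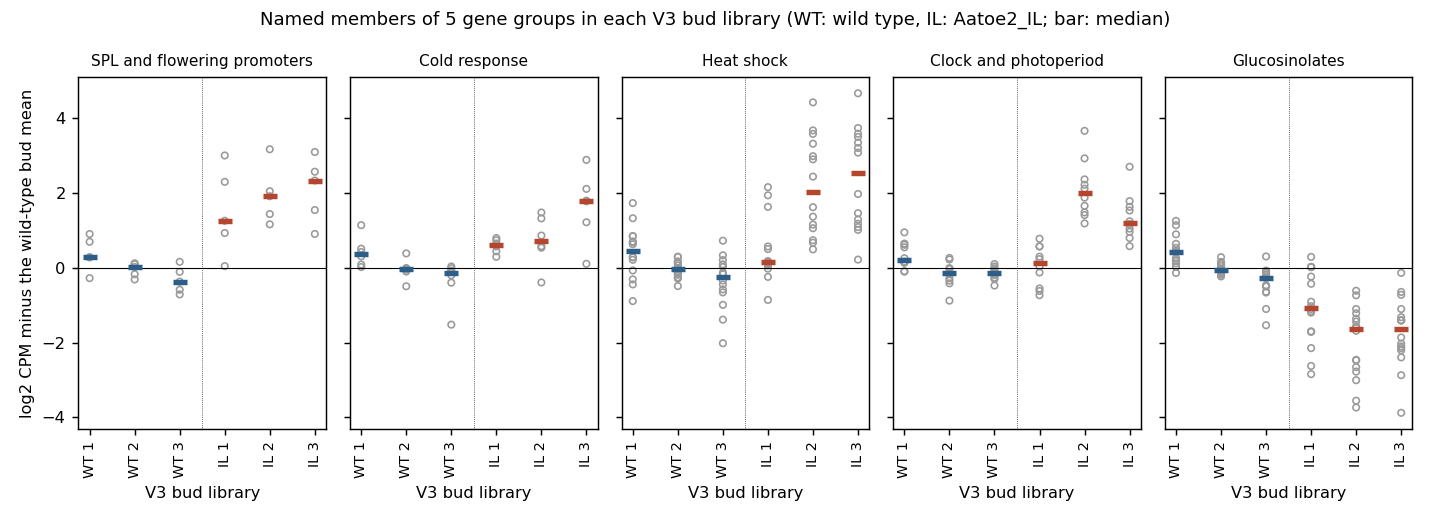
Level in each V3 bud library relative to the wild-type bud mean (log2 CPM minus that mean) for the named members of 5 lists. Each point is a gene in a library, the bars are medians, wild-type libraries are in blue and Aatoe2_IL libraries in red. The heat shock and clock medians of Aatoe2_IL replicate 1, 0.15 and 0.14, lie near 0 while those of the other Aatoe2_IL libraries exceed 1. In all 3, the medians of the SPL and flowering promoter list, which also holds VIN3, are above 1 and the glucosinolate medians below -1. Of 16 glucosinolate genes, 10 in replicate 1, 15 in replicate 2 and 14 in replicate 3 lie below every wild-type library. The share of all genes tested that lie so is not given here, and the members were named by the authors as changed.

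Of 58 genes listed for glucosinolates, the defence compounds of this plant family, 17 had a name and 16 of these were tested. Among them 5 fell, none rose, and the median was -2.04. CYP79A2 (Aa_G570240h1), which starts benzyl glucosinolate synthesis from phenylalanine, had 3.02, 3.33 and 2.6 CPM in wild type and 0.323, 0.379 and 0.546 CPM in Aatoe2_IL and fell by 2.81 log2 units (SE 0.54 and edgeR adjusted p = 0.00837). FMOGS-OX6 (Aa_G261880h1), of a family of side-chain oxygenases, fell by 1.51 (SE 0.18) from 19.5, 15.9 and 15.4 to 5.05, 6.44 and 6.23 CPM. CYP79C2 fell by 3.33, losing its call without Aatoe2_IL replicate 2 (highest adjusted p = 0.0539). IMD1, of methionine chain elongation, fell by 2.71, losing it without Aatoe2_IL replicate 2 or 3 (highest adjusted p = 0.0662), and IQD1, a regulator of the pathway, by 2.55, losing it without wild-type replicate 1 or 2 or, in turn, Aatoe2_IL replicate 2 or 3 (highest adjusted p = 0.101). The fall of IQD1 was 4.12 without Aatoe2_IL replicate 1. The aliphatic regulators MYB28 and MYB29 were nearly undetected in Aatoe2_IL, MYB28 at 0, 0.0947 and 0 CPM against 1.81, 0.833 and 0.1 CPM, and neither passed (edgeR adjusted p = 0.104 and 0.135). The abundant core enzyme genes did not pass either, CYP83B1 at 170.0, 138 and 142 CPM against 152, 64 and 56.4 CPM and SUR1 at 114, 96.3 and 92 CPM against 102, 60.1 and 60.7 CPM. In these 2 genes Aatoe2_IL replicate 1 again lay within the wild-type range.

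Among other lists, MYBL2 (Aa_G214090h1), a repressor of flavonoid synthesis, rose by 1.96 (SE 0.43) and lost its call without wild-type replicate 1 or 2 or, in turn, Aatoe2_IL replicate 2 or 3 (highest adjusted p = 0.0883), and the flavonoid hydroxylase gene TT7 did not pass (log2 1.44, edgeR adjusted p = 0.115). Of 4 named defence genes, CNGC4 rose and PR4, a chitin-binding defence protein, fell by 1.81. PR4 lost its call when any of the 6 bud libraries was left out (highest adjusted p = 0.157). LOX2, of jasmonate synthesis, was at 54.7, 10.5 and 27 CPM in Aatoe2_IL against 12, 11.4 and 13.7 CPM and WRKY40 at 2.9, 0.947 and 2.51 CPM against 0.302, 0.625 and 0.3 CPM, and neither passed (edgeR adjusted p = 0.248 and 0.22). DYT1, the named gene of the pollen, ovule and seed markers, ran from 0.937 to 2.02 CPM in wild-type buds and from 1.29 to 4.36 CPM in Aatoe2_IL buds. Among families grouped by the authors' descriptions, 7 of 11 transporters, channels and carriers rose and 1 fell, while 1 of 8 cytochrome P450 genes rose and 3 fell. Of all genes tested, 2.98% rose and 1.97% fell. Members have names because the authors list them as changed, so that these counts show nothing about the families as a whole.

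The largest changes and the most abundant changed genes lay partly outside these groups. AT1G11850 (Aa_G338880h1) rose by 2.85 (SE 0.33) from 1.01, 0.729 and 0.701 to 4.09, 7.1 and 6.56 CPM. AT3G44970 rose by 3.69, or by 5.04 without wild-type replicate 1, and lost its call without wild-type replicate 2 (highest adjusted p = 0.0545) and with DESeq2 (adjusted p = 0.215). AT5G25970 rose by 3.25, or by 3.96 without wild-type replicate 1. Among the falls, AT1G27030 went from 1.01, 2.29 and 2.8 to 0.107, 0.0947 and 0.219 CPM, and AT4G13170 from 4.44, 3.54 and 5.1 to 0.753, 0.284 and 0.546 CPM. CP2 (Aa_G495040h1), a cysteine protease, fell by 1.64 (SE 0.18) from 70.6, 58.8 and 50.4 to 18.6, 19.1 and 20.1 CPM, and PLP6 (Aa_G727440h1), a patatin-like lipid hydrolase, by 1.04 (SE 0.1) from 54.2, 47.7 and 53.2 to 25.6, 25.29 and 24.3 CPM. ALDH11A3 (Aa_G641110h1), an aldehyde dehydrogenase, rose by 1.38 (SE 0.16) from 26.8, 21.1 and 21.6 to 53.3, 49.4 and 78.7 CPM.

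Among genes without a name, some went from no count to presence and others changed in level. Aa_G874400h1 had no count in any wild-type bud library and 108, 125 and 91 counts in Aatoe2_IL replicates 1, 2 and 3, at least 109.9-fold higher against a floor of 3 counts over the group (edgeR adjusted p = 1.59e-06). Aa_G647150h1 had none in wild type and 84, 73 and 57 counts in Aatoe2_IL, at least 72.6-fold higher (edgeR adjusted p = 6.34e-05). Aa_G297760h1 went from 1.01, 2.39 and 1.2 CPM to 33.3, 28.8 and 29.9 CPM, a rise of 4.32 log2 units (SE 0.25 and edgeR adjusted p = 5.74e-07). In the apices these genes were higher in Aatoe2_IL too, by log2 7.97, 5.16 and 4.67, where the first values depend on how counts near 0 are treated. Among genes that fell, Aa_G498720h1 went from 18.6, 12.6 and 13.4 to 3.44, 2.37 and 1.97 CPM.

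The genotype effect in V3 buds minus that in the apex passed for 202 genes, 1.03% of those tested, by the interaction of genotype and tissue in the same fit, which also holds the apex libraries. In 149 genes the difference was higher in buds (0.763%) and in 53 it was lower (0.272%). The count of 202 depended on the libraries and the fit. Leaving out 1 bud library gave 45 without wild-type replicate 2, 118 without wild-type replicate 3, 61 without Aatoe2_IL replicate 1 and 45 without Aatoe2_IL replicate 3. Leaving out 1 apex library gave 391 without wild-type replicate 1, 42 without wild-type replicate 2, 40 without wild-type replicate 3, 91 without Aatoe2_IL replicate 2 and 40 without Aatoe2_IL replicate 3. It was 567 with DESeq2, 409 with a covariate for reads outside genes, and 1986 with a replicate block within each genotype, an alternative chosen after seeing the data that ties bud and apex libraries of 1 number. Of the genes that passed in buds, 127 were picked for description here, a part of those with a name and some without. Among these 127, 37 also passed this test, 29 that rose and 8 that fell. Of the 37, 14 kept the result whichever of the 12 libraries was left out, and 23 lost it without at least 1 library, with highest adjusted p between 0.0615 and 0.146. The bud and apex values given side by side below come from separate libraries of the same genotypes.

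UFO and KNATM, which fell in buds, had differences above 0 in the apices, where neither passed. UFO stood at 15.1, 10.02 and 14.6 CPM in wild-type apices and at 19.6, 15.7 and 14.9 CPM in those of Aatoe2_IL, with log2 differences of -1.83 in buds and 0.34 in apices and a difference between tissues of -2.17 (SE 0.26, edgeR adjusted p = 0.00254). KNATM had 1.64, 1.64 and 1.44 CPM against 2.87, 2.24 and 1.62 CPM in apices, and its difference between tissues was -2.38 (SE 0.36, edgeR adjusted p = 0.00811). The glucosinolate gene FMOGS-OX6 had differences of -1.51 in buds and 0.3 in apices, and a difference between tissues of -1.81 (SE 0.28, edgeR adjusted p = 0.00897). It was the 1 member of the 16 tested glucosinolate genes that passed the interaction test. In the apices 6 of the 16 fell, against 0.809% of all genes tested, so that falls in this list were not particular to buds. Members have names because the authors list them as changed in buds or apices. AT1G23000 was at -1.02 in buds and 0.24 in apices.

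The other 10 of the 14 genes rose in buds and had apex differences between -0.84 (ZIP1) and -0.02 (ADC1). They are XIP1, SUS6, SEOR1, CLC-A, CNGC4, ADC1, ALDH11A3, BLH2, KT2/3 and ZIP1. ADC1 stood at 35.3, 35.8 and 34.9 CPM in wild-type and 29.99, 41.9 and 33 CPM in Aatoe2_IL apices, and its difference between tissues was 1.8 (SE 0.19, edgeR adjusted p = 0.00193). SUS6 had 11.5, 10.4 and 12.4 CPM against 7.39, 9.99 and 11.1 CPM in apices, with a difference between tissues of 2.37 (SE 0.31, edgeR adjusted p = 0.00357). KT2/3 had 5.62, 6.65 and 5.92 CPM against 3.83, 5.4 and 4.57 CPM, with 2.56 (SE 0.39, edgeR adjusted p = 0.00811) between tissues. In each of these 3 genes wild-type buds lay below wild-type apices. The Aatoe2_IL bud values of SUS6 lay between those of both tissues of wild type, those of ADC1 above them and those of KT2/3 from within the range of wild-type apices to above it. XIP1, CLC-A and CNGC4 gave differences between tissues of 2.22, 1.72 and 1.96.

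SPL5 also passed, with differences of 2.71 in buds and 0.83 in apices, but lost the result without wild-type bud replicate 2, wild-type apex replicate 3 or Aatoe2_IL apex replicate 3. TCP4, tcp10 and TCP24 were at -0.29, -0.15 and -0.06 in apices against 1.18, 1.18 and 1.01 in buds, and they are among the 23 whose result was lost without some library. None of the 14 named heat shock genes passed this test, and their differences in apices included 3.21 for HSP101 and 3.65 for HSFA7A.

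**Figure D5:**
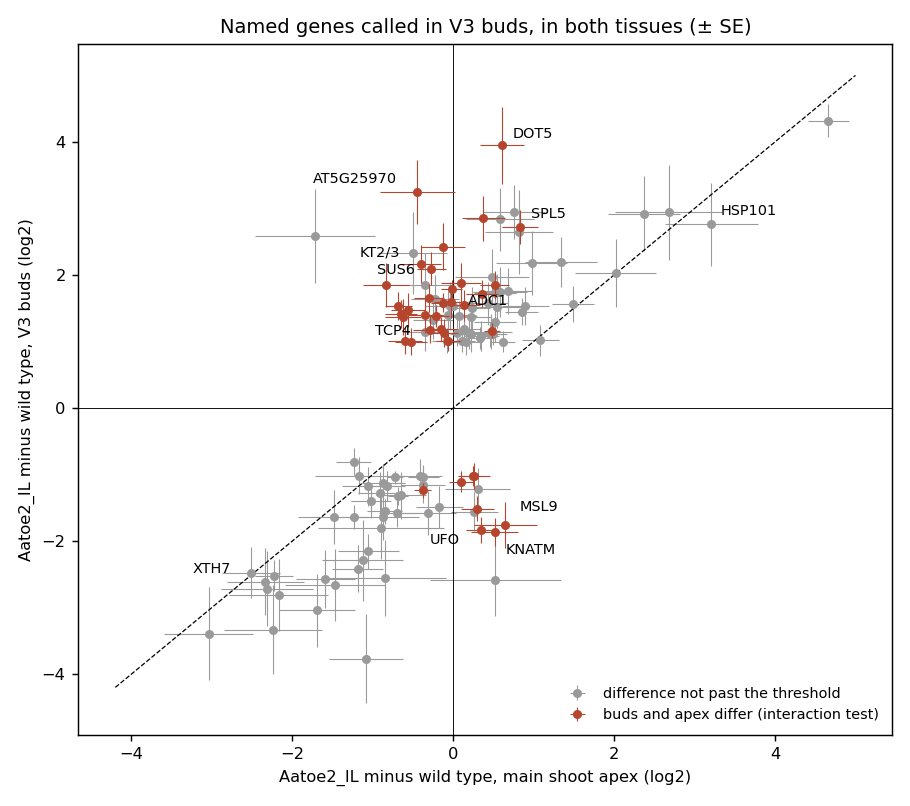
Difference between Aatoe2_IL and wild type (log2) in V3 buds (vertical axis) against that in main shoot apices (horizontal axis), with SE bars. The 123 genes shown passed in buds and were picked for description here. Coloured points are the 37 for which the difference between tissues passed, and the dashed line marks equal differences. 4 genes with few counts are left out, and genes such as KNATM and UFO lie below the line and SUS6 and ADC1 above it.

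Of the 127 genes picked for description that passed in buds, 16 also passed in the apices in the same direction, 8 up and 8 down. Over all genes, 34 that rose and 45 that fell in buds did the same in apices, where 215 genes passed (1.1%), and none passed in opposite directions. Conversely, of genes that the authors' deposited tables name for the apex alone, 65 that they list as higher were tested in buds and 2 of these rose, TEL1 (an RNA-binding protein gene of the shoot apex) by 0.49 and AT3G53830, against 2.98% of all genes tested. Of these 65 genes, 52 had a bud difference above 0, against 48.4% of all genes, and the median was 0.68. Of 128 listed as lower 6 fell in buds, against 1.97% of all genes, 31 had a bud difference above 0 and the median was -0.5. The 6 included LAZY1, which sets the growth angle of branches, by 1.27, and AT5G17760 by 0.81, which lost its call when any bud library was left out (highest adjusted p = 0.105). Both sets of genes were chosen on the apex libraries and, by leaving out genes the authors list for buds, on the bud libraries too. Their counts that rose or fell in buds were thereby lowered in advance, and their signs and medians are not independent of the bud libraries.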

How the data were processed

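Poly(A) RNA was sequenced as single reads of 100 bases from a strand-specific kit, per the labels' protocols, in 12 libraries (3 for each genotype and tissue). The authors deposited raw read counts per gene. Per the submitters' processing notes, the tools were STAR, HTSeq 0.5.4p1, DESeq and DESeq2, with no role given for each. Which genome build and annotation were used, and whether strand was used in counting, is not given in the sources used here. The authors also deposited 4 tables of changed genes which, per the file headers, hold group means of normalised counts (a signal per group), a fold, its log2 and an adjusted p-value for genes past 2-fold with adjusted p under 0.05. These tables are used here for names and descriptions, and to pick the genes listed as higher or lower in the apex alone. Their 732 entries were matched to identifiers of the count table by name and group means (within 0.5%).

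Counters of unassigned reads were left out of library sizes. They hold, for reads outside genes, 13.8% to 21.5% of a bud library. From the counts, edgeR 4.0.16 in R 4.3.3 (TMM factors, filterByExpr, 4 groups, 8 residual degrees of freedom) gave quasi-likelihood tests of 19520 of 34220 genes, and DESeq2 1.42.0 was an alternative. The SE of a log2 difference is that difference divided by the square root of its F value. Genes with 3 or fewer counts in a group have an exact 95% interval of the ratio of counts or a lower bound against 3 counts over the group, and both cover counting error alone. The steps were also run on counts simulated without differences between tissues. The outcome is not given here and is not used as support. Bud replicates of 1 genotype differed by more than sampling noise in each case.

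Genes named are the members of the lists, the 10 largest rises and falls, the 8 with the smallest p and the 6 of highest level in each direction, 3 unnamed genes in each direction, and up to 3 examples of each family of descriptions. Genes of the 12 added groups and single genes outside this rule were chosen after their values were seen. The members and lists were chosen with earlier results of these data known. Alternatives were another test, scaling, filter, covariate, block or set of libraries. Orthologue names rest on the authors' tables, and sequences and positions were not analysed here.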

Additional observations from a re-analysis of the deposited data

Results flagged for a closer look

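For 37 of the 127 genes picked for description that changed in V3 buds, the genotype effect in buds minus that in apices passed the interaction test of the fit (edgeR adjusted p under 0.05). The value of each is given on the log2 scale. The genes were chosen on the same bud libraries, and each difference had the same sign without each library in turn.

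Higher in buds were the floral and phase change genes SPL5 (1.88), CRC (1.34) and DOT5 (3.34). So were the growth and patterning genes TCP4 (1.47), tcp10 (1.34), TCP24 (1.07), HAM4 (1.75), TMM (1.61), BRL2 (1.78), BLH2 (2.06) and XIP1 (2.22). Of vascular, channel and transport genes the values were 2.37 for SUS6, 2.04 for SEOR1, 1.99 for SEOA, 1.72 for CLC-A, 1.96 for CNGC4, 2.55 for CNGC3, 2.56 for KT2/3 and 2.69 for ZIP1. The polyamine genes ADC1 and ACL5 were at 1.8 and 1.61, the chloroplast genes CIA2 and FBA2 at 0.68 and 1.52, and the cell wall genes XTH15 and ATCSLA15 at 1.41 and 1.24. The remaining rises were ALDH11A3 (1.59), AT5G25970 (3.7), AT1G11850 (2.47) and AT2G36630 (1.36).

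Lower in buds were UFO (-2.17), KNATM (-2.38), FMOGS-OX6 (-1.81), MSL9 (-2.41), BEN1 (-1.27), WRKY13 (-1.21), AT1G23000 (-1.27) and Aa_G323350h1 (-0.86). The 14 genes that passed whichever of the 12 libraries was left out were UFO, KNATM, XIP1, FMOGS-OX6, SUS6, SEOR1, CLC-A, CNGC4, ADC1, ALDH11A3, AT1G23000, BLH2, KT2/3 and ZIP1. The others lost the result without at least 1 library, most often without wild-type bud replicate 2 (21 genes) or Aatoe2_IL bud replicate 3 (21 genes). Losses were nearly as many without wild-type apex replicate 3 (20), wild-type apex replicate 2 (19), Aatoe2_IL apex replicate 3 (19) or Aatoe2_IL bud replicate 1 (18).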

How the results depend on the processing

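The number of genes changed in V3 buds, 967, was 1336 with DESeq2, 972 with median-of-ratios factors, 1052 without a filter on low counts, 1365 with the replicate block and 973 without copies numbered above the first. It was 2134 when the share of reads outside genes was a covariate, 621 with the bud libraries alone, 589 with those alone and a replicate block, and 394 at 2-fold or more. Leaving out 1 library gave 410 to 1017, and leaving out wild-type replicate 1 and Aatoe2_IL replicate 2 together, the bud libraries with the most reads outside genes and an alternative chosen after seeing the data, gave 506. The genotype effect in V3 buds minus that in the apex passed for 202 genes, for 201 with median-of-ratios factors and 261 without the filter, for 567 with DESeq2, for 409 with the covariate and for 40 to 391 when 1 library was left out. The cause was not tested in any of these cases, although fits with fewer libraries have fewer samples.

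With the replicate block the genotype effect in V3 buds minus that in the apex passed for 253 genes. Same-numbered bud libraries of the genotypes had correlations of their deviations from the group means of -0.007, -0.071 and 0.1, so that they were not taken as pairs. Between bud and apex libraries of 1 number the correlations were 0.355, 0.062 and 0.248 in wild type and 0.415, 0.32 and 0.239 in Aatoe2_IL, not all over 0.1, and a replicate block within each genotype, also added after seeing the data, gave 1986 for the genotype effect in V3 buds minus that in the apex.

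Of the 127 genes picked for description that passed in buds, 74 kept their calls without each bud library. With the bud libraries alone 14 lost theirs (SPL4, IQD1, SWEET13, PR4, WRKY12, HAM4, GIS, RTFL16, PIL2, SMXL3, NdhO, CAD5, CSLC04 and AGP12), and with those alone and the block 22 did. None of the 127 changed direction under the alternatives run. Depth limits genes near 1 CPM, where about 10 reads stand behind a value.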
